A study of Danio rerio with 6 samples.

Results

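Axon guidance ligands and receptors were read on arrays of zebrafish embryos at 48 h after fertilization, in 3 samples injected at the single-cell stage with setb MO1, a morpholino against setb, and 3 injected with a control morpholino. Each sample was hybridised to 1 array, and expression is given as log2 intensity, a scale on which a step of 1 is a doubling of the signal. The setb gene is a zebrafish copy of human SET, whose product binds histones and inhibits a protein phosphatase. No strain, transgene or further treatment is named in the labels, the number of embryos in a sample is not given there, and embryos had been graded as normal-like, mild or moderate without a statement of which grade entered which array.

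Genes were taken by the first letters of their symbols (sema, plxn, nrp1, nrp2, robo, slit and a digit, ntn, unc5, dcc, epha, ephb, efna, efnb) among probe sets with 1 symbol, which gave 81 of the 11311 genes measured. Of these, 45 are ligands, 35 are receptors, and unc50 shares only its letters with the Unc5 receptors and encodes an unrelated membrane protein. It did not pass the test (log2 change −0.05 ± 0.10, SE) and is counted in the 81 but in no class. SEMA4F and NTN5, which the annotation spells in capitals, lie outside the rule as written and did not pass (adjusted p = 0.289 and 0.983).

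As background, growing axons steer by ligands in their surroundings that bind receptors on the growth cone. Netrins attract through Dcc and repel through Unc5 receptors, Slits repel through Robo receptors, and semaphorins signal through plexins, the secreted ones with neuropilins as co-receptors. Ephrins are held on the membrane of one cell and bind Eph receptor tyrosine kinases on the next, and both partners can signal. Several of these proteins also act outside the nervous system, in vessels, epithelia and somites.

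Both directions of change occurred among the guidance genes, with decreases more frequent. Of the 81 genes, 16 were higher and 26 lower in setb MO1 embryos at an adjusted p under 0.05, and 39 did not pass. That is 51.9% called, against 46.5% of all genes. The share called lower was 32.1%, against 21.6% of all genes, and the share called higher was 19.8%, against 24.9%. Receptors leaned further to the low side than ligands, with 5 higher and 13 lower of 35, while 11 ligands were higher and 13 lower of 45. The median log2 change was −0.16 for receptors and −0.08 for ligands, beside 0.02 for all genes. These shares were not tested against each other. Changes were small, with a median absolute log2 change of 0.24 for guidance genes and 0.22 for all genes. The gene epha5 alone reached 2-fold, with ephb3a close at 1.99-fold, beside 2.91% of all genes at 2-fold or more. A count of 1 in 81 was not tested against that share.

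**Figure D1:**
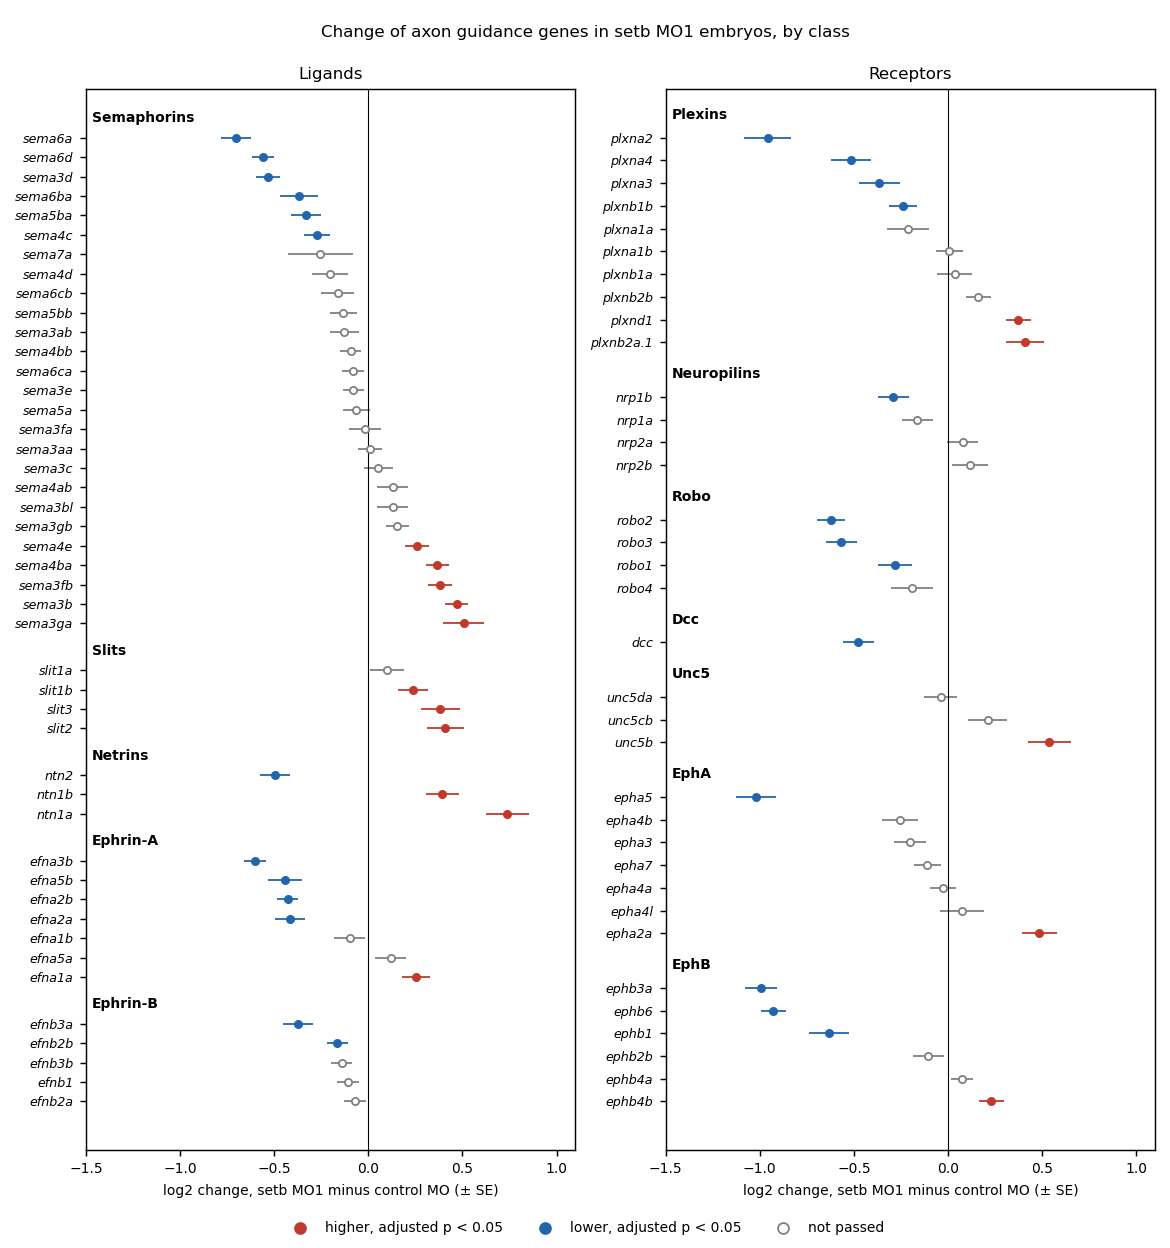
Log2 change (setb MO1 minus control MO, x axis) with its standard error for each ligand (left) and receptor (right), grouped by class; filled points passed an adjusted p of 0.05 and open points did not. Slits lie right of 0 and Robo receptors left, slit1a and robo4 as open points. The lowest receptors are epha5, ephb3a, plxna2 and ephb6.

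The targeted transcript was not lower. The log2 level of setb was 12.69, 12.60 and 12.66 in setb MO1 embryos, against 12.51, 12.48 and 12.38 in control embryos, a difference of 0.19 ± 0.06 (SE, limma adjusted p = 0.0390). The call was lost without any single array (adjusted p of 0.0632 to 0.117) except control replicate 1 (0.0327). A morpholino that blocks translation need not lower its transcript. How MO1 acts was not tested here, so the setb level does not check the labels.

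Correlations between arrays across all probe sets were 0.964 to 0.99 within a group and 0.884 to 0.93 between groups. Within each group, most guidance genes had their lowest level on the same array. In setb MO1 embryos replicate 2 was the lowest array for 64 of the 81 genes, against 31.9% of all genes, and in control embryos replicate 1 was the lowest for 61 of 81, against 36.6%. The median guidance gene was lower in setb MO1 replicate 2 than in the mean of its group's other arrays by a log2 difference of −0.13, and lower in control replicate 1 by −0.12, where the median of all genes was at 0.004 and 0.02. Such offsets were not limited to these genes. For setb MO1 replicate 2 and control replicate 1 they were −0.07 and −0.07 in a list of other guidance cues and adhesion genes, −0.05 and −0.12 in neural progenitor genes, −0.10 and −0.004 in blood vessel genes, and 0.01 and 0.10 in genes of differentiated neurons. Without both arrays, a setting chosen after seeing the data, 15 guidance genes were higher and 25 lower, close to the counts with all arrays. Over all 11311 genes that setting gave 2409 higher and 2066 lower, against 2814 and 2447 with all arrays. What moves the guidance genes together within a group was not tested. Separate clutches are not stated for the replicates, so the p-values cover only the spread among these arrays, part of which may be technical. In RNA of embryos, fewer cells of a type and less RNA per cell cannot be told apart.

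Slit genes leaned higher and robo genes lower, but only the calls on slit2, robo2 and robo3 held without any single array. Of 4 slit genes, 3 were higher and slit1a did not pass, and of 4 robo genes, 3 were lower and robo4 did not pass. Over all genes, 24.9% were higher and 21.6% lower, and these small classes were not tested against them. The plot of Slit, Robo and netrin genes shows each array.

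The log2 level of slit2, a midline repellent, was 10.87, 10.74 and 10.96 in setb MO1 embryos, against 10.25, 10.55 and 10.53 in control embryos. All setb MO1 arrays lay above all control arrays, and the change was 0.41 ± 0.10 (SE, 1.33-fold, adjusted p = 0.0122). For slit3 the levels were 11.41, 11.28 and 11.52 in setb MO1 embryos and 10.83, 11.08 and 11.14 in control embryos, a change of 0.38 ± 0.10 (adjusted p = 0.0182). The groups did not overlap, and the lowest control array was replicate 1, as for slit2. The slit3 call was lost without setb MO1 replicate 1 (adjusted p = 0.0527) or 3 (0.0613). For slit1b the levels were 10.64, 10.43 and 10.55 in setb MO1 embryos and 10.21, 10.32 and 10.37 in control embryos, a change of 0.24 ± 0.08 (adjusted p = 0.0399). This call was weak. It was lost without control replicate 1 (0.0859) or 2 (0.0969) and without setb MO1 replicate 1 (0.129) or 3 (0.0946), and the other probe set of slit1b changed by 0.18 ± 0.10 without passing. The paralog slit1a stood at 11.22, 11.10 and 11.28 in setb MO1 embryos and 10.94, 11.17 and 11.20 in control embryos, with overlapping groups and a change of 0.10 ± 0.09.

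The receptor gene robo2, known in zebrafish as astray for its misrouted retinal axons, was at 9.45, 9.31 and 9.43 in setb MO1 embryos, against 9.91, 10.10 and 10.05 in control embryos. The groups were well apart, with a change of −0.62 ± 0.07 (SE, 1.54-fold lower, adjusted p = 0.000582). The gene robo3, which commissural axons need to cross the midline, was at 10.60, 10.46 and 10.64 in setb MO1 embryos and 11.02, 11.15 and 11.24 in control embryos, a change of −0.57 ± 0.08 (adjusted p = 0.00131). Both calls held without any single array. For robo1 the levels were 9.99, 9.96 and 10.13 in setb MO1 embryos and 10.15, 10.39 and 10.40 in control embryos, with a narrow gap and a change of −0.28 ± 0.09 (adjusted p = 0.0346). The robo1 call was lost without control replicate 2 (0.124) or 3 (0.0877) and without setb MO1 replicate 1 (0.0982) or 2 (0.110). The gene robo4, known chiefly from vessels, was at 9.57, 9.74 and 9.68 in setb MO1 embryos and 9.67, 9.80 and 10.10 in control embryos, where the groups overlapped (−0.19 ± 0.11, adjusted p = 0.203). In the RefSeq table (assembly GRCz12tu, used for names and gene order) robo2 and robo1 are neighbours, as are robo4 and robo3.

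**Figure D2:**
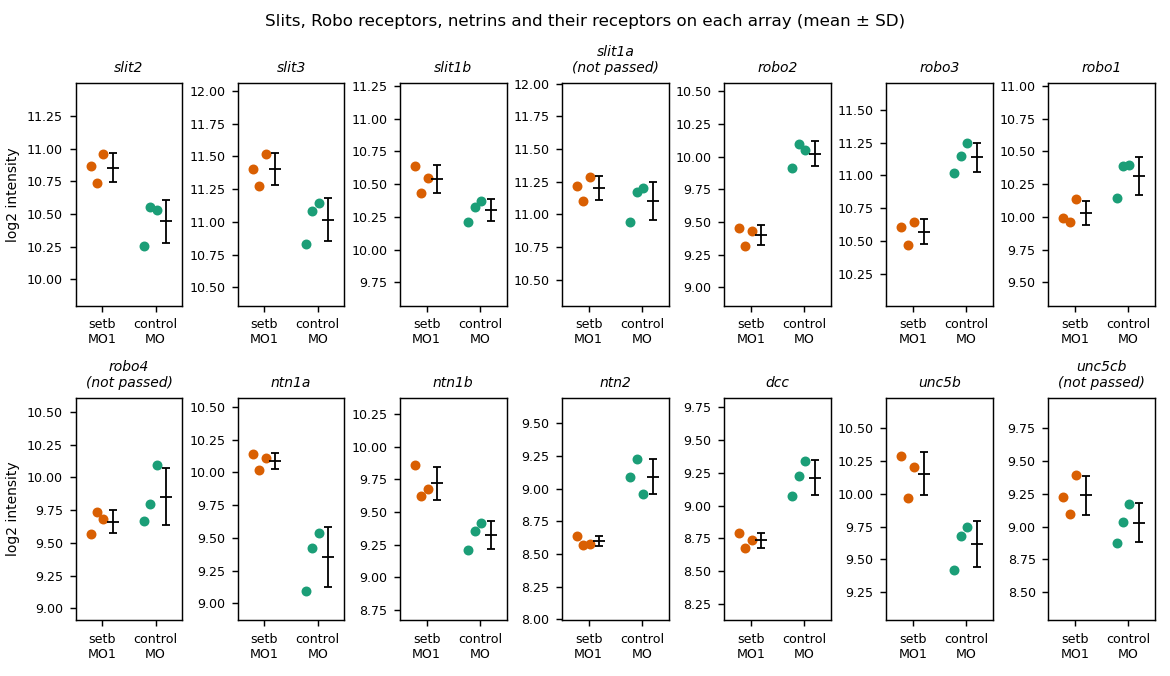
Log2 intensity (y axis) on each array for Slit, Robo, netrin, Dcc and Unc5 genes, setb MO1 left and control MO right in each panel, with the mean and SD in black; all panels span the same range of log2 units. The 3 setb MO1 arrays of slit2 lie above all control arrays, and those of robo2, robo3 and dcc lie below.

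Among netrins and their receptors, both netrin-1 copies and unc5b rose while ntn2 and dcc fell, and these 5 calls held without any single array. The gene ntn1a, which encodes the floor plate attractant netrin-1, had levels of 10.14, 10.02 and 10.11 in setb MO1 embryos, against 9.10, 9.42 and 9.54 in control embryos. The gap between the groups exceeded the spread of either, and the change of 0.74 ± 0.11 (SE, 1.67-fold, adjusted p = 0.00171) was the highest of the guidance genes. Its copy ntn1b was at 9.86, 9.62 and 9.67 in setb MO1 embryos and 9.21, 9.35 and 9.42 in control embryos, a change of 0.39 ± 0.09 (adjusted p = 0.00897). The third netrin measured, ntn2, was at 8.64, 8.57 and 8.58 in setb MO1 embryos and 9.09, 9.23 and 8.96 in control embryos, a change of −0.50 ± 0.08 (adjusted p = 0.00208).

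The attractive receptor gene dcc was at 8.79, 8.67 and 8.74 in setb MO1 embryos, against 9.07, 9.22 and 9.34 in control embryos, and every setb MO1 array was below every control array (−0.48 ± 0.08, SE, adjusted p = 0.00273). The repulsive receptor gene unc5b, also known from vessels, was at 10.29, 9.97 and 10.20 in setb MO1 embryos and 9.42, 9.68 and 9.75 in control embryos. The change was 0.54 ± 0.11 (1.45-fold, adjusted p = 0.00705). Of the other Unc5 genes, unc5cb was at 9.22, 9.10 and 9.40 in setb MO1 embryos and 8.88, 9.03 and 9.18 in control embryos, with overlap and a change of 0.21 ± 0.10 (adjusted p = 0.133), and unc5da was at −0.04 ± 0.09.

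Of 26 semaphorin genes, 5 were higher, 6 lower and 15 did not pass. That is 42.3% called, against 46.5% of all genes, with 19.2% higher and 23.1% lower against 24.9% and 21.6%. Of 11 genes of the secreted group 3, 3 were higher and 1 lower, and of 5 genes of the transmembrane group 6, none was higher and 3 were lower, a contrast that was not tested. In group 4, 2 of 6 were higher and 1 lower. In group 5, 1 of 3 was lower. Group 7, with sema7a alone, had none.

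The largest decrease was that of sema6a, a transmembrane ligand of plexins A2 and A4 in the mouse, with levels of 9.72, 9.59 and 9.48 in setb MO1 embryos against 10.22, 10.31 and 10.36 in control embryos (−0.70 ± 0.08, SE, adjusted p = 0.00046). The same direction was seen for sema6d, at 10.35, 10.26 and 10.28 in setb MO1 embryos and 10.87, 10.88 and 10.83 in control embryos, where the arrays of a group differed by under 0.1 (−0.56 ± 0.06, adjusted p = 0.00035). The secreted semaphorin gene sema3d, which guides retinal and other brain axons in zebrafish, was at 9.57, 9.49 and 9.42 in setb MO1 embryos and 10.06, 10.03 and 10.00 in control embryos (−0.53 ± 0.06, adjusted p = 0.000595). These 3 calls held without any single array. The other semaphorins called lower were sema6ba (−0.37 ± 0.10), sema5ba (−0.33 ± 0.08) and sema4c (−0.27 ± 0.07). Removing control replicate 2 (0.0782) or 3 (0.0531), or setb MO1 replicate 2 (0.0700), ended the sema6ba call by adjusted p. The sema4c call ended on removal of replicate 2 of either group, at 0.0526 for setb MO1 and 0.0621 for control.

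In the other direction, sema3ga was at 9.28, 9.27 and 9.48 in setb MO1 embryos, against 8.62, 8.92 and 8.97 in control embryos (0.51 ± 0.11, SE, adjusted p = 0.00734). The secreted semaphorin gene sema3b was at 10.43, 10.49 and 10.47 in setb MO1 embryos and 10.05, 10.01 and 9.94 in control embryos (0.47 ± 0.06, adjusted p = 0.000732). Its groups were tight and far apart, while its neighbour in the RefSeq order, sema3bl, changed by 0.13 ± 0.08 without passing. The remaining genes called higher were sema3fb (0.38 ± 0.06), sema4ba (0.37 ± 0.06) and sema4e (0.26 ± 0.06). All 5 calls held without any single array. Semaphorin genes that did not pass had changes between −0.26 (sema7a, whose control arrays spanned 7.99 to 8.77) and 0.15. Among them were sema3aa (0.01 ± 0.07) and sema3ab (−0.13 ± 0.08), the zebrafish copies of the growth cone collapsing Sema3A, and sema3e (−0.08 ± 0.06). The most abundant by signal of those that did not pass, sema3gb, was at 10.69, 10.66 and 10.75 in setb MO1 embryos and 10.50, 10.60 and 10.53 in control embryos (adjusted p = 0.0696).

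**Figure D3:**
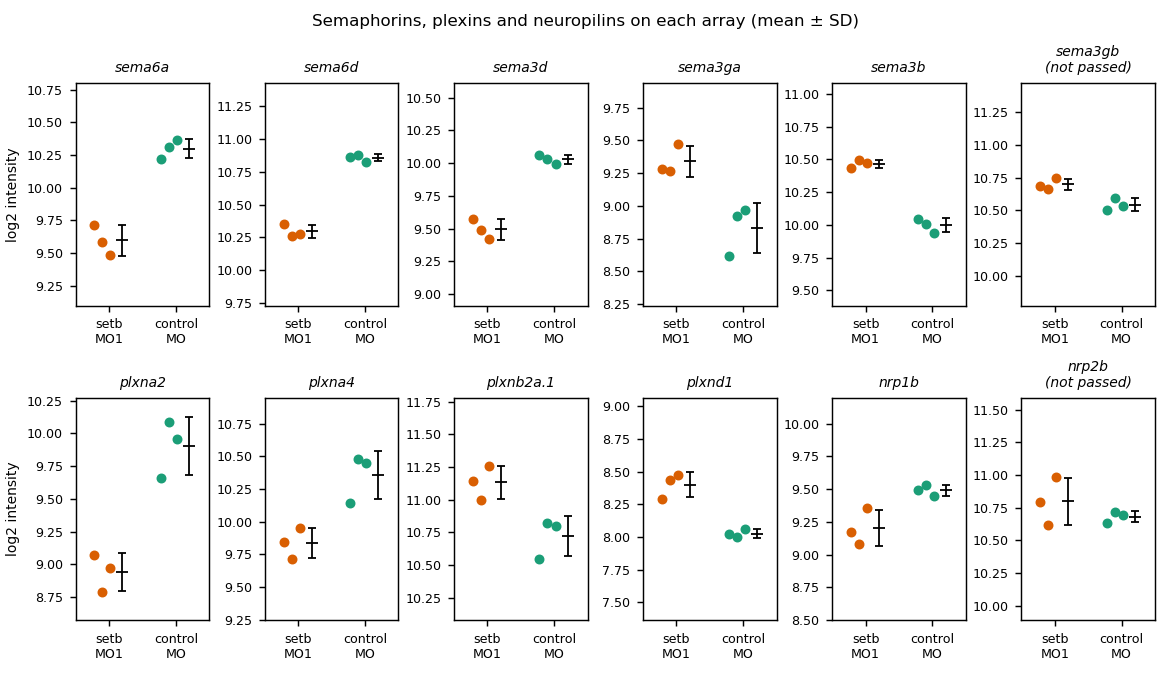
Log2 intensity (y axis) on each array for semaphorin, plexin and neuropilin genes, setb MO1 left and control MO right in each panel, with the mean and SD in black; all panels span the same range of log2 units. In sema6a, sema6d, sema3d, plxna2 and plxna4 every setb MO1 array lies below every control array, and in sema3ga, sema3b, plxnb2a.1 and plxnd1 above.

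Plexin genes moved both ways. Of 10, 2 were higher (20%) and 4 lower (40%), against 24.9% and 21.6% of all genes. The lower ones were plxna2, plxna4, plxna3 and plxnb1b. The levels of plxna2 were 9.07, 8.79 and 8.97 in setb MO1 embryos, against 9.66, 10.09 and 9.96 in control embryos, a change of −0.96 ± 0.12 (SE, 1.94-fold lower, adjusted p = 0.000809). Those of plxna4, a receptor for group 3 and group 6 semaphorins in the mouse, were 9.85, 9.72 and 9.95 in setb MO1 embryos and 10.14, 10.48 and 10.45 in control embryos (−0.52 ± 0.11, adjusted p = 0.00615). In both genes the control array nearest to the setb MO1 arrays was replicate 1. The gene plxna3, which zebrafish motor axons need to leave the spinal cord at the right place, changed by −0.37 ± 0.11 (adjusted p = 0.0280). Removing control replicate 2 (0.101) or 3 (0.0720), or setb MO1 replicate 1 (0.0566) or 2 (0.0902), ended the call. The other plexin A genes, plxna1a (−0.21 ± 0.11) and plxna1b (0.01 ± 0.07), did not pass, the second with levels of 11.53, 11.37 and 11.50 in setb MO1 embryos and 11.37, 11.54 and 11.46 in control embryos.

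The plexin genes that rose were plxnb2a.1 and plxnd1. The first was at 11.14, 11.00 and 11.25 in setb MO1 embryos and 10.55, 10.82 and 10.80 in control embryos (0.41 ± 0.10, SE, adjusted p = 0.0121). For plxnd1, the plexin of endothelial cells that limits sprouting of intersegmental vessels in zebrafish, the levels were 8.29, 8.44 and 8.47 in setb MO1 embryos and 8.02, 8.00 and 8.06 in control embryos (0.37 ± 0.07, adjusted p = 0.00359). Its mean level lay at percentile 2.55 of all genes, where background may make up part of the signal and a fold change may be understated. Its ligand gene sema3e did not pass, as given above. Of the neuropilins, which also bind vascular endothelial growth factor, nrp1b was at 9.18, 9.08 and 9.35 in setb MO1 embryos and 9.50, 9.53 and 9.45 in control embryos (−0.29 ± 0.08, adjusted p = 0.0215). That call was lost without control replicate 2 (0.0822) or setb MO1 replicate 1 (0.0677) or 2 (0.0731). The other neuropilin genes did not pass, with nrp1a at −0.16 ± 0.08, nrp2a at 0.08 ± 0.08 and nrp2b at 0.12 ± 0.09. The levels of nrp2b were 10.79, 10.62 and 10.98 in setb MO1 embryos and 10.63, 10.72 and 10.69 in control embryos.

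Among ephrins, decreases outnumbered increases. Of 7 ephrin-A genes, 4 were lower and 1 higher, and of 5 ephrin-B genes, 2 were lower and none higher. The shares lower, 57.1% and 40%, stand beside 21.6% of all genes and were not tested. The gene efna3b was at 9.14, 9.08 and 9.04 in setb MO1 embryos, against 9.66, 9.71 and 9.70 in control embryos (−0.60 ± 0.06, SE, adjusted p = 0.000273). The genes efna2a and efna5b encode repellents that are graded across the tectum and map retinal axons onto it in zebrafish. Levels of efna2a were 9.67, 9.83 and 9.90 in setb MO1 embryos and 10.17, 10.18 and 10.31 in control embryos (−0.42 ± 0.08, adjusted p = 0.00438). Levels of efna5b were 9.11, 8.92 and 8.97 in setb MO1 embryos and 9.27, 9.51 and 9.55 in control embryos (−0.44 ± 0.09, adjusted p = 0.00635). With efna2b, at 9.48, 9.49 and 9.56 in setb MO1 embryos and 9.96, 9.95 and 9.90 in control embryos (−0.43 ± 0.06), these 4 calls held without any single array, and the groups were apart in each.

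The ephrin that rose, efna1a, was at 10.90, 10.85 and 11.06 in setb MO1 embryos and 10.62, 10.72 and 10.72 in control embryos (0.25 ± 0.07, SE, adjusted p = 0.0255). Its call was lost without control replicate 1 (0.0545) or 2 (0.0654) or setb MO1 replicate 1 (0.0542) or 3 (0.0738). Among ephrin-B genes, efnb3a was at 9.71, 9.45 and 9.67 in setb MO1 embryos and 9.98, 9.99 and 9.98 in control embryos (−0.38 ± 0.08, adjusted p = 0.00732). The control arrays of efnb3a were nearly equal, and those of setb MO1 were spread. The change of efnb2b, at 9.62, 9.61 and 9.61 in setb MO1 embryos and 9.79, 9.77 and 9.77 in control embryos, was −0.16 ± 0.05 (adjusted p = 0.0384). Leaving out any one array lost this call, at adjusted p-values of 0.0634 (without control replicate 1) to 0.107 (without control replicate 2). The arterial marker efnb2a (−0.07 ± 0.06), efnb3b (−0.14 ± 0.06) and efnb1 did not pass. The last was at 11.84, 11.83 and 11.90 in setb MO1 embryos and 11.97, 11.94 and 11.99 in control embryos, a change of −0.11 ± 0.06 with groups that did not overlap (adjusted p = 0.156).

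Eph receptors held the largest decreases of all the guidance genes, epha5 and ephb3a, next to increases of epha2a and ephb4b. The gene epha5, known for graded expression in the vertebrate retina, was at 9.16, 8.77 and 8.90 in setb MO1 embryos, against 9.86, 10.04 and 9.99 in control embryos. The change was −1.02 ± 0.11 (SE, 2.03-fold lower, adjusted p = 0.000353). For ephb3a the levels were 8.92, 8.70 and 8.86 in setb MO1 embryos and 9.70, 9.89 and 9.86 in control embryos (−0.99 ± 0.08, 1.99-fold lower, adjusted p = 0.000186). In both genes the gap between the groups was larger than the range within either. The gene ephb6, whose product lacks kinase activity, was at 8.18, 8.23 and 8.08 in setb MO1 embryos and 9.04, 9.12 and 9.13 in control embryos (−0.93 ± 0.07, adjusted p = 0.000127, the smallest of the guidance genes). The gene ephb1, needed in the mouse for retinal axons that do not cross the midline, was at 8.03, 8.06 and 7.94 in setb MO1 embryos and 8.43, 8.84 and 8.64 in control embryos (−0.63 ± 0.11, adjusted p = 0.0025). The mean level of ephb1 lay at percentile 4.9 and that of ephb6 at percentile 15.1 of all genes, so that their folds may be understated. All 4 calls held without any single array.

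Of the receptors that rose, epha2a was at 10.35, 10.35 and 10.52 in setb MO1 embryos and 9.74, 10.00 and 10.01 in control embryos (0.49 ± 0.09, SE, adjusted p = 0.00449). In mammals EphA2 is prominent in epithelia. The receptor gene ephb4b was at 9.76, 9.73 and 9.90 in setb MO1 embryos and 9.55, 9.54 and 9.61 in control embryos (0.23 ± 0.07, adjusted p = 0.0263). The ephb4b call was lost without control replicate 2 (0.0958) or setb MO1 replicate 1 (0.0512) or 3 (0.0775). Its copy ephb4a stood at 11.15, 11.05 and 11.08 in setb MO1 embryos and 11.02, 11.04 and 10.99 in control embryos (0.07 ± 0.06, adjusted p = 0.339). Of 7 EphA genes, 2 were called (28.6%, against 46.5% of all genes) and 5 did not pass. Those that did not pass were epha4b (−0.25 ± 0.09), epha3 (−0.20 ± 0.08), epha7 (−0.11 ± 0.07), epha4a (−0.03 ± 0.07) and epha4l (0.07 ± 0.12). The dimmer probe set of epha7 changed the other way, by 0.09 ± 0.11, also without passing (adjusted p = 0.507 over all probe sets). The levels of epha4a, which marks alternating hindbrain segments in zebrafish, were 10.65, 10.57 and 10.67 in setb MO1 embryos and 10.56, 10.67 and 10.73 in control embryos. For ephb2b the probe sets differed: the brighter one did not pass (−0.10 ± 0.08, adjusted p = 0.325), and the other was lower (−0.67 ± 0.15, adjusted p = 0.00868 over all probe sets).

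**Figure D4:**
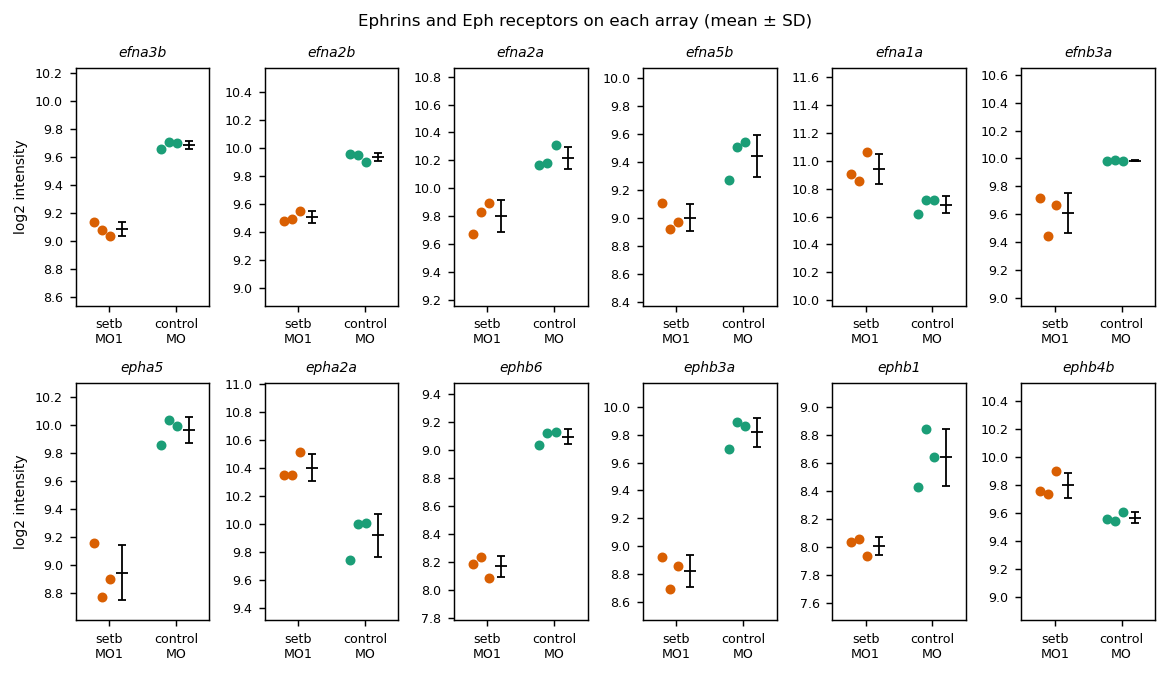
Log2 intensity (y axis) on each array for the ephrin and Eph receptor genes that passed the test other than efnb2b, setb MO1 left and control MO right in each panel, with the mean and SD in black; all panels span the same range of log2 units. The setb MO1 arrays of epha5, ephb3a and ephb6 lie well below the control arrays, and those of efna1a, epha2a and ephb4b lie above.

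Zebrafish keeps a and b copies of many guidance genes, and 19 such pairs were measured. In 12 pairs 1 copy passed and the other did not, which by itself does not show that the copies differ. The difference of the copies on each array was therefore compared between the groups in a fit over all 1252 pairs of symbols that end in a and b. It called 7 of the 19 guidance pairs (36.8%), against 45.9% of all pairs, so that unequal change was no more frequent here than elsewhere. For efna5a and efna5b the a minus b difference was 0.52, 0.47 and 0.60 in setb MO1 embryos, against 0.04, −0.03 and −0.11 in control embryos. The shift of 0.56 ± 0.08 (SE, adjusted p = 0.0011) separated efna5a, at 0.12 ± 0.08, from the fallen efna5b. The array levels of efna5a were 9.63, 9.39 and 9.57 in setb MO1 embryos and 9.32, 9.48 and 9.43 in control embryos.

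For sema4ba and sema4bb the difference was −0.12, −0.18 and −0.07 in setb MO1 embryos and −0.62, −0.51 and −0.64 in control embryos, a shift of 0.46 ± 0.08 (SE, adjusted p = 0.00246). The copy sema4ba was at 9.30, 9.28 and 9.34 in setb MO1 embryos and 8.92, 9.02 and 8.89 in control embryos, and sema4bb at 9.42, 9.47 and 9.42 in setb MO1 embryos and 9.54, 9.52 and 9.52 in control embryos. For sema3fa and sema3fb, ligands of neuropilin-2 complexes, it was 0.28, 0.12 and 0.17 in setb MO1 embryos and 0.49, 0.62 and 0.65 in control embryos, a shift of −0.40 ± 0.08 (adjusted p = 0.00659). Here sema3fb carried the change, with levels of 9.62, 9.59 and 9.75 in setb MO1 embryos and 9.25, 9.28 and 9.30 in control embryos. Levels of sema3fa were 9.90, 9.71 and 9.92 in setb MO1 embryos and 9.75, 9.90 and 9.95 in control embryos. These 3 pairs kept the call without any single array.

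The remaining 4 calls were less stable. They were ntn1a over ntn1b (0.35 ± 0.09, SE, adjusted p = 0.0172), where both copies rose, sema3ga over sema3gb (0.35 ± 0.10, 0.0229), efna1a over efna1b (0.35 ± 0.11, 0.0362) and plxnb1a over plxnb1b (0.28 ± 0.09, 0.0378). The ntn1 and sema3g calls were lost without control replicate 2 (0.0511 and 0.0639) and without setb MO1 replicate 2 (0.0634 and 0.0582) or 3 (0.0571 and 0.0737). The efna1 call was lost without control replicate 1 (0.0783) or 2 (0.0689) or setb MO1 replicate 1 (0.113) or 3 (0.110). The plxnb1 call was lost without control replicate 1 (0.0521), 2 (0.0892) or 3 (0.0780) or setb MO1 replicate 1 (0.113) or 3 (0.109). Levels of efna1b were 9.58, 9.85 and 9.73 in setb MO1 embryos and 9.89, 9.77 and 9.79 in control embryos, with overlap.

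For plxnb1a the levels were 10.49, 10.30 and 10.61 in setb MO1 embryos and 10.33, 10.47 and 10.51 in control embryos, and its other 3 probe sets changed by 0.02 to 0.10. Those of plxnb1b were 9.89, 9.90 and 9.96 in setb MO1 embryos and 10.04, 10.15 and 10.28 in control embryos (−0.24 ± 0.07, SE, adjusted p = 0.0318). The call on plxnb1b itself was lost without control replicate 2 (0.0919) or 3 (0.0781) or setb MO1 replicate 1 (0.0930), 2 (0.0888) or 3 (0.0557). At the other end, efna2a and efna2b fell together, and the interval of the difference between their changes was −0.20 to 0.22 (95%). For nrp2a and nrp2b it was −0.22 to 0.14, with neither copy called.

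**Figure D5:**
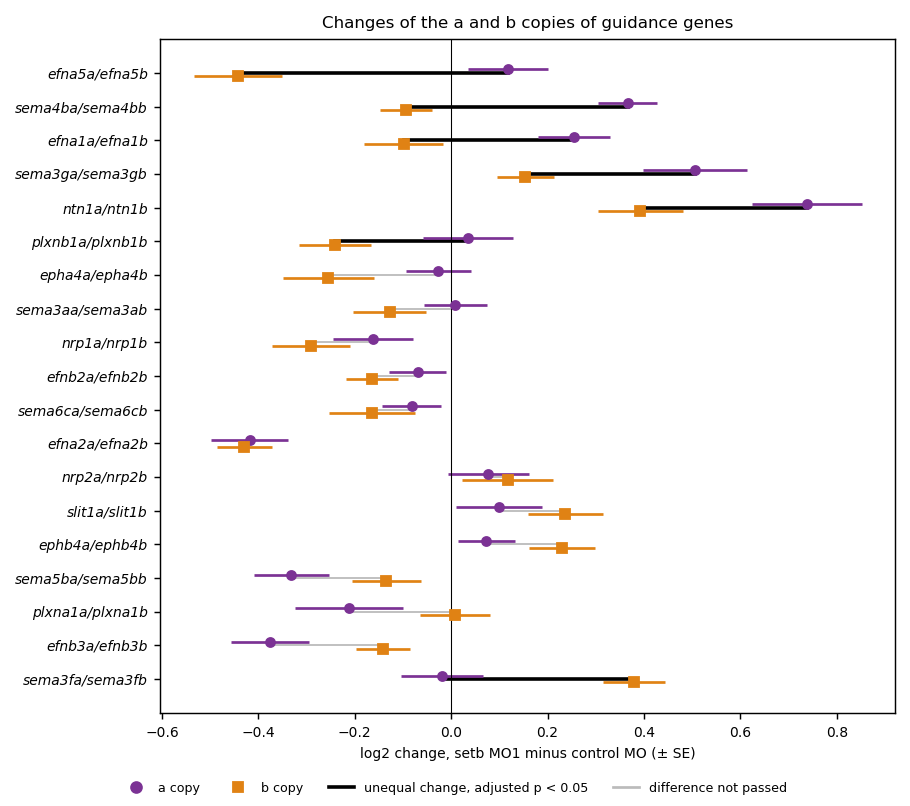
Log2 change (setb MO1 minus control MO, x axis) with its standard error for the a copy (circles) and b copy (squares) of 19 pairs of guidance genes; black bars join the 7 pairs whose unequal change passed an adjusted p of 0.05. The longest black bar joins efna5a and efna5b, and the symbols of efna2a and efna2b nearly coincide.

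Other genes of the guidance machinery were counted from wider lists, chosen with earlier results of these data known. Of 61 effectors inside the growth cone, 10 were higher, 24 lower and 27 did not pass, with a median log2 change of −0.11. That is 16.4% higher and 39.3% lower, against 24.9% and 21.6% of all genes. The actin-binding gene ablim1a (−1.52 ± 0.08), the Src family kinase gene fyna (−1.15 ± 0.07) and the collapsin response mediator genes dpysl2b (−0.75 ± 0.06) and dpysl2a (−1.01 ± 0.08) had the smallest p-values, all at adjusted p of at most 0.000158. Of 85 other guidance cues, receptors and axon adhesion genes, 18 were higher, 36 lower and 31 did not pass, with a median of −0.11, which is 21.2% higher and 42.4% lower. Here the adhesion genes dscamb (−1.36 ± 0.06) and dscama (−0.76 ± 0.06), the cadherin-type receptor gene celsr3 (−0.99 ± 0.08) and smoc1, which encodes a secreted matrix protein (−0.78 ± 0.07), led by p. Both lists had a larger share lower and a smaller share higher than all genes, a difference that was not tested.

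Markers of tissues that carry guidance genes were counted in the same way, to be read against 24.9% of all genes called higher and 21.6% called lower. These lists too were chosen with earlier results of these data known, so their shares are descriptive only. Of 39 genes of differentiated neurons, 33 were lower, none higher and 6 did not pass (84.6% lower), and the mean log2 level of the list was 9.41 to 9.50 over the setb MO1 arrays and 10.03 to 10.16 over the control arrays (median log2 change −0.60). The lowest p-values belonged to gad2 (−1.58 ± 0.08), neurod1 (−1.45 ± 0.09), rbfox1 (−0.82 ± 0.06) and syn2a (−0.84 ± 0.06). Of 20 genes of neural progenitors and radial glia, 2 were higher and 10 lower (10% and 50%), with a mean level of 10.30 to 10.35 in setb MO1 and 10.55 to 10.71 in control arrays and a median change of −0.28. The smallest p-values here were those of pax6b (−0.96 ± 0.08), fabp7a (−1.62 ± 0.13), slc1a3b (−0.998 ± 0.11) and pax6a (−0.55 ± 0.08), all lower, while 8 of the 20 did not pass. The part of these lists in the decreases of robo2, robo3, dcc, epha5 and the other receptors was not tested.

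Of 19 blood vessel genes, 8 were higher (42.1%) and 4 lower (21.1%, mean level 9.07 to 9.16 in setb MO1 and 9.01 to 9.02 in control arrays, median change 0.18). Guidance genes known from vessels, with their copies, went both ways. The genes plxnd1 and unc5b rose, and with less stable calls ephb4b rose and nrp1b and efnb2b fell. The ephb4b and nrp1b calls were lost without control replicate 2 (adjusted p = 0.0958 and 0.0822) or other single arrays named above, and the efnb2b call on leaving out any array. Not passed were robo4 (−0.19 ± 0.11), efnb2a (−0.07 ± 0.06), ephb4a (0.07 ± 0.06), nrp1a (−0.16 ± 0.08), nrp2a (0.08 ± 0.08) and nrp2b (0.12 ± 0.09). By p the vessel list was led by stab1 (0.52 ± 0.08) and stab2 (0.73 ± 0.13), which rose, and tal1 (−0.78 ± 0.13) and gata2a (−0.50 ± 0.10), which fell. Of that list, 7 genes did not pass. Of 29 epidermis and periderm genes, 19 were higher (65.5%) and 1 lower (3.45%, mean level 11.07 to 11.11 in setb MO1 and 10.72 to 10.80 in control arrays, median change 0.40), beside the increase of epha2a. Their smallest p-values were those of cdh1 (0.57 ± 0.06), pkp3a (0.64 ± 0.07), icn2 (0.79 ± 0.09) and pkp1b (0.92 ± 0.11). Of 31 skeletal muscle genes, 6 were higher and 6 lower (38.7% called, against 46.5% of all genes), with ranges of 11.55 to 11.58 in setb MO1 and 11.55 to 11.59 in control arrays and a median change of 0.03. By p these were led by prox1a (−0.90 ± 0.08), myhz2 (−0.52 ± 0.06), mef2ca (0.47 ± 0.07) and cacna1sa (−0.55 ± 0.09). Of 26 p53 targets, a response that morpholinos themselves are known to raise, 18 were higher (69.2%) and 4 lower (15.4%, mean level 10.41 to 10.51 in setb MO1 and 9.84 to 9.92 in control arrays, median change 0.46). They were led by cdkn1a (2.23 ± 0.08), mdm2 (1.24 ± 0.07), phlda3 (1.22 ± 0.08) and rps27l (1.66 ± 0.12). Intensities on an array have no true 0, so that no marker can be called absent, and the part of vessel, epidermis, muscle and p53 genes in the guidance results was not tested.

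Over all guidance genes, each of the 42 that were called had groups that did not overlap, as had 9 of the 39 that did not pass, for 51 of 81 in all, against 58% of all genes. Of the 42 calls, 31 held when any single array was left out, and the other 11, named above with their values, were lost without at least 1 array. The same count was not made over all genes, so it does not set the guidance genes apart. The calls that held include the netrins, dcc, unc5b, slit2, robo2 and robo3, the semaphorins sema6a, sema6d and sema3d, the plexins plxna2, plxna4 and plxnd1, and the Eph receptors epha5, epha2a, ephb1, ephb3a and ephb6.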

How the data were processed

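The authors deposited log2 intensities for 15726 probe sets on 6 arrays, normalized with RMA, per the submitters' processing notes. The version of RMA was not stated. Array medians were 9.47 to 9.49.

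Groups follow the treatment in the labels. Gene symbols came from GEO's annotation of the platform. Of them 11738 had 1 symbol, 413 several and 3575 none, and genes were named from those with 1 symbol. All 81 member symbols matched a RefSeq gene table (GRCz12tu) unchanged by Entrez identifier. A gene was read from its probe set with the highest mean, and 5 members had several.

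The groups were compared with limma 3.58.1 (R 4.3.3, lmFit and eBayes, two-sided) across 11311 genes, with Benjamini-Hochberg adjustment over all of them at 0.05. The same test was run on the a minus b difference of 1252 pairs. Both were also run on simulated data with independent noise and few changed genes. That setting is unlike these data, so it does not check the calls given here. Changes are setb MO1 minus control, with the standard error of the fit. The number of arrays limits the precision. Array values are given, by rule, for up to 4 called genes of a class with the largest change, 1 that did not pass and the pairs called, and for sema3b, added after its values were seen. Of each marker list up to 4 genes with the smallest p are given. Members and lists were chosen with earlier results of these data known. Alternatives were other normalizations, filters, priors, weights, thresholds, probe set choices, a replicate block and leaving out arrays. No sequence table was used here.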

Additional observations from a re-analysis of the deposited data

How the results depend on the processing

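With all arrays 16 guidance genes were higher and 26 lower. Leaving out 1 array gave 12 to 16 higher and 19 to 27 lower (ligands 8 to 11 and 10 to 12, receptors 4 to 5 and 9 to 15), and 3 to 7 of 19 pairs with unequal change, the lowest without control replicate 2 or setb MO1 replicate 3. Over all 11311 genes it gave 1944 to 2879 higher and 1812 to 2448 lower. Both were lowest without control replicate 2 and highest without control replicate 1. Calls over all pairs are given only for the main setting. At a threshold of 0.01, 9 guidance genes (6 ligands and 3 receptors) were higher and 3 pairs were called. The count of guidance genes called lower stayed within 1.5 times of its value at 0.05. Over all genes 1705 were higher and 1566 lower at 0.01, in place of 2814 and 2447. That is 3271 genes called in all, in place of 5261. Estimated array weights were 39.6 for control replicate 2 and at most 0.916 for any other array, and gave 16 pairs. With these weights 7762 of all genes were called in place of 5261. The 16 pairs have no share over all pairs beside them, so nothing about guidance copies is read from that count. Deviations from the group mean over all genes correlated at 0.0688, −0.356 and 0.361 for same-numbered arrays, so replicate numbers gave no uniform pairing. For unlike numbers, setb MO1 replicate 2 with control replicate 1 gave 0.396 and setb MO1 replicate 1 with control replicate 2 gave 0.172. The rest ran from −0.376 to 0.145. A pairing in another order was not tested. With the replicate block, 15 guidance genes were higher and 25 lower and 6 pairs were called, beside 2761 higher and 2377 lower over all genes. Other guidance counts stayed within 1.5 times. Directions were followed across settings only for the 50 genes whose array values are given by rule. Of these, 4 that did not pass turned, all near 0. Outside them, the dimmer probe set of epha7 changed by 0.0933, where the brighter one changed by −0.11. For plxna1b the change was −0.0171 after repeated quantile normalization, −0.0725 with array weights, −0.0218 with the mean of its probe sets, −0.0514 with its dimmer probe set and −0.0342 to 0.0563 without single arrays. For plxnb1a it was −0.0181 with array weights and −0.0359 to 0.118 without single arrays, for epha4a −0.0725 to 0.011 and for sema3fa −0.0785 to 0.0468. The cause was not tested. The call on slit1b was also lost with the block (adjusted p = 0.0631) and with the mean of its probe sets (0.0719), and that on efnb2b with the block (0.0950). Signal over background limits the dim genes, plxnd1 and ephb1 among them.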
